A study of Homo sapiens with 16 samples.

Results

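The 10 genes described here encode haematopoietic transcription regulators around the TAL1 complex and the GFI1B repressor: TAL1, LYL1, TCF3, LMO2, LDB1, CBFA2T3, GFI1B, GFI1, NFE2 and MEIS1. They were taken by name, with the estimated reads of each gene's transcripts summed in every library, and are 10 of 35052 genes in the tables. All 10 were among the 17559 genes that passed the filter on low counts. The cells were K562, an established human leukaemia line with erythroid features, labelled wild type. They were treated with 25 nM PMA (phorbol 12-myristate 13-acetate), an activator of protein kinase C that drives these cells towards a megakaryocyte-like state. RNA was sequenced at 0 h, in libraries that carry the same PMA label with no time elapsed, after 0.5 and 1.5 h, after 3, 6 and 24 h, and after 48 and 72 h. Each of the 8 time points has 2 libraries, 16 in all. The medium was replaced after 24 and 48 h, and no untreated library of a later time was analysed here, so hours of PMA, hours in culture and the new medium cannot be told apart. The labels name K562 as the only line and do not say whether the 2 libraries of a time point came from separate cultures, so p-values here measure only the spread between these libraries.

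TAL1 is a basic helix-loop-helix factor of blood stem cells, erythroid cells and megakaryocytes. It binds DNA together with an E protein such as TCF3, and the adaptor LMO2 and the dimerizing protein LDB1 join this pair to GATA1 or GATA2. LYL1 is its close relative, CBFA2T3 (ETO2) is a corepressor carried by the complex, and GFI1B and GFI1 are zinc-finger repressors that recruit the demethylase KDM1A with RCOR1. NFE2 pairs with small MAF proteins and drives late platelet genes, and MEIS1 is a homeodomain partner of PBX and HOX proteins with a known role in megakaryocyte formation.

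Library totals were 27285773 to 54056289 estimated reads. The erythroid genes of a marker list, embryonic and fetal globins among them, had at least 3 reads in every library, 8 of 8. Their summed level, in CPM (reads scaled to the library total), was 2064 and 2308 at 0 h, 1010 and 887 at 24 h, then 1649 and 1285 at 72 h. Of the 11 megakaryocyte markers, 5 reached 3 reads in at least 1 library at 0 h and 9 at 72 h, with a summed level of 79.4 and 115 CPM before and 6015 and 5608 CPM after. Most of that sum came from THBS1 and ITGB3, with means of 1448 and 319 CPM over all libraries. Of the 7 markers tested, 4 were called higher and 2 lower at 24 h (31.7% and 26.6% of all tested genes). ITGA2B was 1 of these 2 (log2 fold change -2.14). At 72 h, 5 were higher and 0 lower (31.7% and 26.9% of all tested genes). PF4, GP9 and GP1BA, which define mature megakaryocytes, had at most 5 reads in any library. The 8 monocyte and granulocyte markers summed to 188 and 220 CPM at 0 h and 250 and 298 CPM at 72 h. At 72 h, 3 of these 8 were called higher and 2 lower (31.7% and 26.9% of all tested genes). Among them MPO had 2 reads in each 0 h library and 831 and 1346 at 24 h, and SPI1 fell by 2.11 on the log2 scale at 6 h (edgeR adjusted p = 5.09e-07). The 4 lymphocyte markers summed to 1.01 to 2.49 CPM. The part of these shifts in the values below was not tested. In bulk RNA, fewer cells of a type and less RNA per cell cannot be told apart. The change of a gene between 0 and 0.5 h correlated with its GC content across genes (r = -0.76), as did the difference between the 0 h libraries (r = -0.69), and genes are not independent replicates. For the change against 0 h, r was -0.43 at 1.5 h and between -0.17 and -0.03 from 3 h on. For the difference between the 2 libraries of a later time point, r ran from -0.53 at 72 h to 0.36 at 3 h. It was -0.07 at 6 h and -0.32 at 24 h. The members' own GC content ran from 45.3% for MEIS1 to 68.3% for LYL1.

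Most of these regulators fell within 6 h of PMA and rose again between 6 and 24 h, some past and some short of their starting level. By edgeR's quasi-likelihood test with Benjamini-Hochberg adjustment, 9 of 10 members were lower at 6 h than at 0 h (57.2% of all tested genes were called at 6 h, 29.4% lower and 27.8% higher). The member that was not called was TCF3. The median log2 fold change of the members at 6 h was -1.91, against 0.00115 over all tested genes. At 72 h, 4 members were higher (TAL1, LMO2, GFI1B and MEIS1), 5 were lower (LDB1, CBFA2T3, TCF3, GFI1 and NFE2) and LYL1 was not called (58.6% of all genes called, 31.7% higher and 26.9% lower). All 10 differed between some of the 8 time points (82.9% of all genes did), with adjusted p from 3.75e-11 for NFE2 to 4.97e-05 for TCF3.

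**Figure D1:**
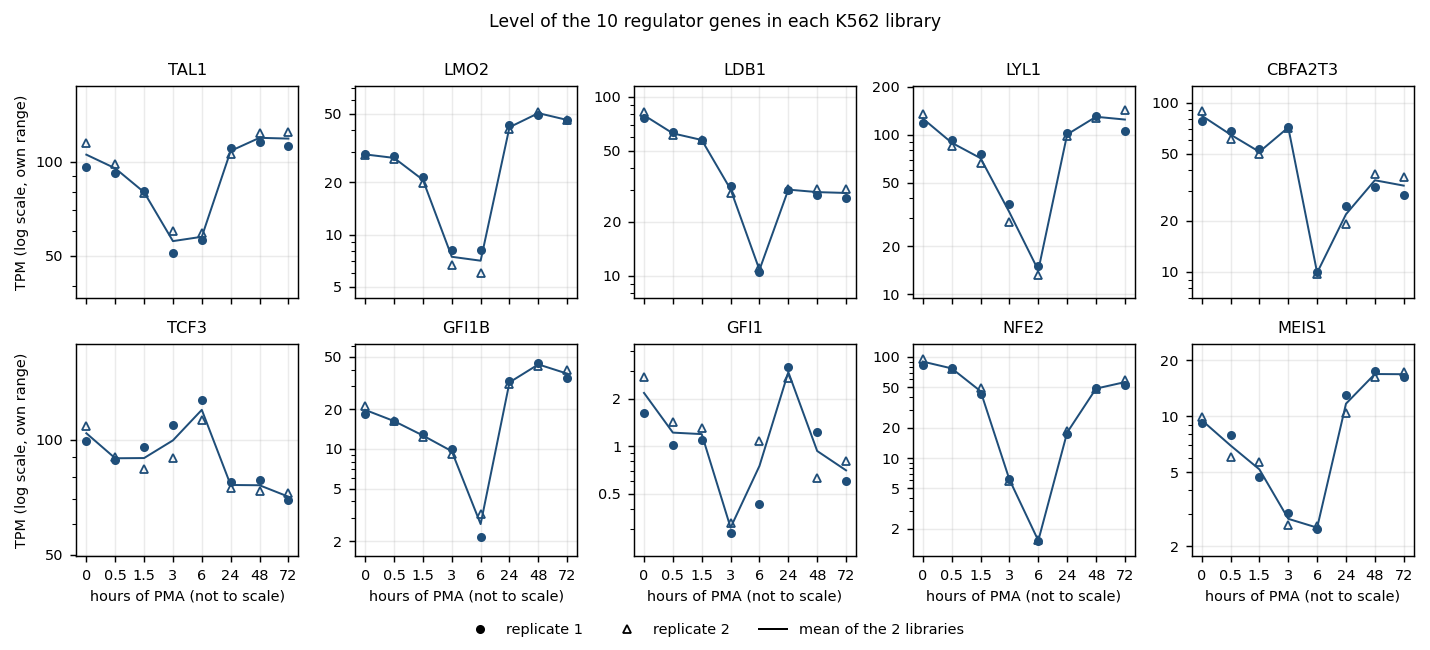
Level of each gene in TPM (abundance per transcript length, log scale, each panel with its own range) against hours of PMA, spaced evenly, with replicate 1 as filled circles, replicate 2 as open triangles and the mean as a line. NFE2 went from 84.0 and 96.0 TPM at 0 h to 1.50 and 1.55 TPM at 6 h, while TCF3 peaked at 6 h with 127 and 112 TPM.

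The order of the levels changed with the course. TPM divides reads by transcript length and scales each library to the same sum, which allows genes to be compared. At 0 h, mean TPM ran from LYL1 (126 TPM) over TAL1 (105), TCF3 (104), NFE2 (90.0), CBFA2T3 (83.8), LDB1 (79.0), LMO2 (29.04), GFI1B (19.8) and MEIS1 (9.54) to GFI1 (2.18). In that order the 2 libraries of TAL1 and TCF3 overlapped, as did those of NFE2 and CBFA2T3 and those of CBFA2T3 and LDB1, and each other neighbouring pair was apart. At 6 h TCF3 led with 120 TPM on average, TAL1 followed with 57.5 TPM, and the rest were at 14.2 TPM or less. At 72 h the order was LYL1, TAL1, TCF3, NFE2, LMO2, GFI1B, CBFA2T3, LDB1, MEIS1 and GFI1, in which LYL1 and TAL1, GFI1B and CBFA2T3, and CBFA2T3 and LDB1 overlapped.

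Sequence around annotated starts is shown for TAL1, LYL1 and GFI1B, since a window of each gene holds the GATA-factor motif. Both GFI1B windows are shown, since the estimated shares of its starts varied over the course. RefSeq (GRCh38.p14) gave windows of 250 bases before to 50 bases after a start for 8 of the 10 members, 12 windows in all. Capitals mark GATAAG or its reverse complement CTTATC, bound by GATA factors, and AAATCA or TGATTT, the core of the GFI1 and GFI1B motif.
TAL1 upstream entry, chr1:47232286-47232585, minus strand: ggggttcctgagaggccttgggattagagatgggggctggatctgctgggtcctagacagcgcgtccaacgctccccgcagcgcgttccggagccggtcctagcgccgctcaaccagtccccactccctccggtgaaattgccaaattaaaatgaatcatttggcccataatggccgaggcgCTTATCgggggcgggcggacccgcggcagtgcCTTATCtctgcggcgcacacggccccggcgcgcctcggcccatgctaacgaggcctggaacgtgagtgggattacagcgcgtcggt
LYL1, chr19:13102809-13103108, minus strand: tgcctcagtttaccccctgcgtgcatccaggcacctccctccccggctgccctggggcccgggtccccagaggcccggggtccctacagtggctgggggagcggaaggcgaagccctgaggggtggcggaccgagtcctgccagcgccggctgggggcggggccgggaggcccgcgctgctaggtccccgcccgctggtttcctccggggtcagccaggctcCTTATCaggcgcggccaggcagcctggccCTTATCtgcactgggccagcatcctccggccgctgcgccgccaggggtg
GFI1B upstream entry, chr9:132945281-132945580, plus strand: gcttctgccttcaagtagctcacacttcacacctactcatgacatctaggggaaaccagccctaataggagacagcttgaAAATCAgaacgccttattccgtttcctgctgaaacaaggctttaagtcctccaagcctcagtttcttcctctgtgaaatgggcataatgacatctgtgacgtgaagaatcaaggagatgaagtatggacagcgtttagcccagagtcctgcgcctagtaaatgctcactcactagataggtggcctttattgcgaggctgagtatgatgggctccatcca
GFI1B downstream entry, chr9:132978444-132978743, plus strand: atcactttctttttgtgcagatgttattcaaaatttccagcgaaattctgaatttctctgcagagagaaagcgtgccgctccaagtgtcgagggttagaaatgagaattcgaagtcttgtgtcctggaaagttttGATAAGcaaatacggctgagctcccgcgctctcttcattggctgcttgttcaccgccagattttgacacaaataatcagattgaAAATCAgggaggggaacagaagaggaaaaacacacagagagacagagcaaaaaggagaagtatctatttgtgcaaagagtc
GATAAG was found on either strand in 3 of the 12 windows, the 3 shown above other than the GFI1B upstream entry, and in 6.37% of 34943 promoter windows. In the TAL1 upstream window CTTATC begins 68 and 36 bases before the start, and in the LYL1 window 28 bases before it and at position 2 after it. The TAL1 upstream window lies outside the gene as annotated here, which ends at 47232220, so no TAL1 transcript counted here starts in it. The other TAL1 window, chr1:47231666-47231965, is not printed and holds none of the motifs searched. It covers the start of TAL1-202, which held 71.7% and 74.8% of TAL1 reads at 0 h. The GFI1B downstream window, which covers the start of the transcript GFI1B-202, holds GATAAG 115 bases before the start and AAATCA 31 bases before it. AAATCA was in 3 of 12 windows (TCF3 and both of GFI1B, 13.2% of all), CAGATG, an E-box that TAL1 and an E protein can bind, in both GFI1B windows (14.7% of all), and TGANTCA, which NFE2 and AP-1 can bind, in the TAL1 upstream window (7.72% of all). None of these matches overlapped a match to another of the motifs searched, each on both strands, and a match of letters describes the sequence and is not a measured binding site.

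The helix-loop-helix genes parted ways. At 6 h TAL1 was 1.32-fold lower than at 0 h, the smallest of the 9 falls, LYL1 was 7.16-fold lower, and TCF3 was at its highest level. TAL1 (chr1:47216290-47232220, minus strand, GRCh38 here and below) was at 95.9 and 115 TPM at 0 h, 92.2 and 98.3 at 0.5 h, 80.4 and 79.4 at 1.5 h, 51.3 and 60.2 at 3 h, then 56.1 and 59.0 at 6 h. It was at 111 and 106 TPM at 24 h, 115 and 123 at 48 h, then 113 and 124 at 72 h. Both libraries at 3 h and at 6 h lay below all others, the pairs at 24 h and at 72 h overlapped the 0 h pair, and the 48 h pair lay just above it. The log2 fold change of TAL1 against 0 h was -0.66 ± 0.09 (SE, n = 2 per time point) at 3 h (adjusted p = 6.33e-05) and -0.40 ± 0.09 at 6 h (adjusted p = 0.00196). It was 0.35 ± 0.09 at 72 h (adjusted p = 0.00489). From 3 to 6 h TAL1 was called higher (log2 fold change 0.26 ± 0.09, adjusted p = 0.0387), a call that several alternatives ended. It was 0.18 with total counts (adjusted p = 0.0835) and 0.09 with counts derived from TPM (adjusted p = 0.641), and it was lost without any 1 of the 0.5, 1.5, 6 and 48 h libraries, 3 h replicate 2 (0.18, adjusted p = 0.207) or 24 h replicate 1. With counts derived from the TPM values, the later rise of TAL1 was smaller and not called (0.17 at 24 h, 0.17 at 48 h and 0.14 at 72 h, adjusted p = 0.254, 0.268 and 0.352), and with total counts the 24 h value was 0.12 (adjusted p = 0.167).

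LYL1 (chr19:13099033-13103161, minus strand), which pairs with E proteins as TAL1 does, was at 118 and 134 TPM at 0 h, 92.7 and 85.7 at 0.5 h, 76.1 and 66.6 at 1.5 h, 37.0 and 28.4 at 3 h, then 15.1 and 13.3 at 6 h. At 24 h it was at 102 and 99.0 TPM, at 48 h at 131 and 128, and at 72 h at 105 and 144. Each pair up to 6 h lay below the pair before it, and from 48 h on the libraries overlapped those of 0 h. The log2 fold change was -2.84 ± 0.18 at 6 h (adjusted p = 8.77e-09) and -0.09 ± 0.16 at 72 h (adjusted p = 0.643). With the GC trend of each library removed, LYL1, the member richest in GC, had a log2 fold change of 0.44 at 72 h (adjusted p = 3.2e-05), so whether it ended above its start depends on that choice.

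TCF3 (chr19:1609290-1652605, minus strand), the E-protein gene, was at 99.0 and 109 TPM at 0 h, 95.4 and 83.6 at 1.5 h, 109 and 89.7 at 3 h, then 127 and 112 at 6 h. It was at 77.6 and 74.6 TPM at 24 h, 78.3 and 73.6 at 48 h, then 69.5 and 72.4 at 72 h. The 6 h pair lay above all other libraries and the 72 h pair below them. From 1.5 to 3 h TCF3 was called higher (log2 fold change 0.41 ± 0.13, adjusted p = 0.0376), a call lost with total counts (0.21, adjusted p = 0.231), with counts derived from TPM (0.37, adjusted p = 0.0556) and without any 1 of the 0.5, 1.5 and 6 h libraries or 3 h replicate 1 (0.26, adjusted p = 0.264). TCF3 fell from 6 to 24 h by 0.82 on the log2 scale (adjusted p = 0.000146), the reverse of the other 9 members in that interval. Against 0 h it was at 0.26 ± 0.13 at 6 h (adjusted p = 0.115) and at -0.78 ± 0.13 at 72 h (adjusted p = 0.000177). The 6 h value was 0.66 and called with GC trends removed (adjusted p = 2.23e-07) and -0.11, not called, with libraries scaled to total counts, which moved the median of all genes at 6 h to -0.35.

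Ratios within a library show the shift among these partners. LYL1 stood at 1.20 ± 0.04 (SD, n = 2) TPM per TPM of TAL1 at 0 h, 0.247 ± 0.03 at 6 h and 1.05 ± 0.16 at 72 h. TCF3 per summed TAL1 and LYL1 went from 0.450 ± 0.02 at 0 h to 1.67 ± 0.16 at 6 h, then 0.294 ± 0.03 at 72 h. For each of these ratios the 6 h pair was apart from the 0 h pair and from the 72 h pair.

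**Figure D2:**
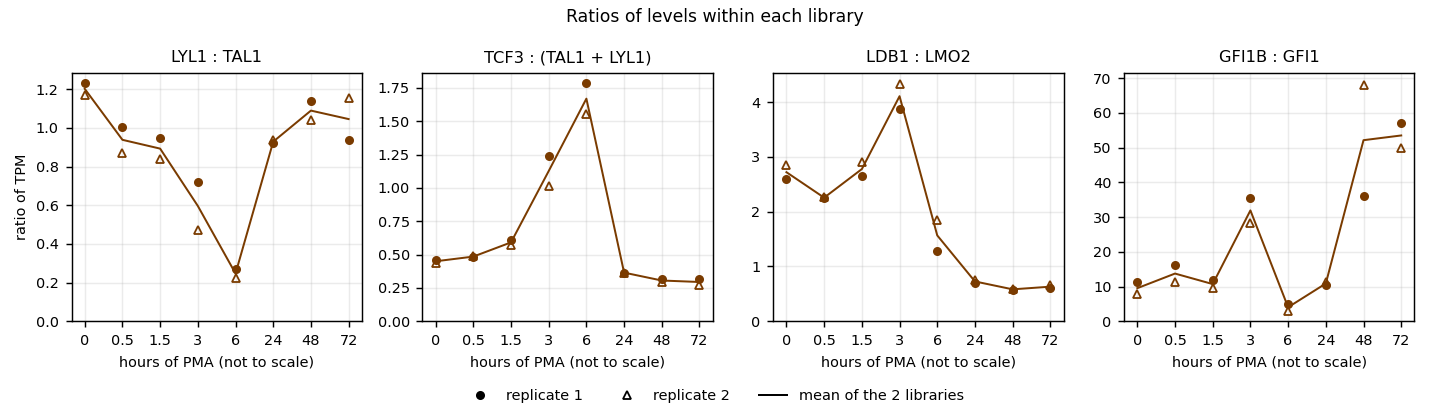
Ratio of TPM between members within each library against hours of PMA, spaced evenly, with replicate 1 as filled circles, replicate 2 as open triangles and the mean as a line. LDB1 per LMO2 went from 2.72 at 0 h to 4.11 at 3 h, then 0.631 at 72 h on average, and GFI1B per GFI1 from 9.53 to 53.5.

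The adaptors that bridge the complex ended on opposite sides of their starting levels. LMO2 (chr11:33858576-33892289, minus strand), the LIM-domain adaptor, was at 29.2 and 28.8 TPM at 0 h, 21.5 and 19.9 at 1.5 h, 8.18 and 6.69 at 3 h, then 8.12 and 5.99 at 6 h. It then stood at 42.7 and 40.7 TPM at 24 h, 49.2 and 51.4 at 48 h, then 45.7 and 46.2 at 72 h, all above the 0 h pair. LDB1 (chr10:102107560-102120453, minus strand), which dimerizes and holds LMO2, was at 76.0 and 82.0 TPM at 0 h, 57.1 and 57.7 at 1.5 h, 31.7 and 29.02 at 3 h, then 10.4 and 11.1 at 6 h. From 24 h on LDB1 lay between 27.3 and 30.7 TPM in all 6 libraries, below the 0 h pair. The log2 fold change of LMO2 was -1.76 ± 0.13 at 6 h (adjusted p = 4.81e-08) and 0.60 ± 0.12 at 72 h (adjusted p = 0.000557). That of LDB1 was -2.58 ± 0.15 at 6 h (adjusted p = 3.63e-09) and -1.53 ± 0.14 at 72 h (adjusted p = 4.17e-07).

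CBFA2T3, the corepressor, was lower at 1.5 h, not called at 3 h and far lower at 6 h. The gene (chr16:88874858-88977204, minus strand) was at 78.3 and 89.3 TPM at 0 h, 68.1 and 61.4 at 0.5 h, 53.0 and 49.4 at 1.5 h, 72.2 and 70.5 at 3 h, then 10.0 and 9.78 at 6 h. It was at 24.6 and 19.2 TPM at 24 h, 31.5 and 38.0 at 48 h, then 28.5 and 36.2 at 72 h. At 3 h, when 8 other members were already lower, CBFA2T3 lay above its own 1.5 h pair (log2 fold change 0.34 ± 0.13, adjusted p = 0.072, and called with the replicate block, 0.35, adjusted p = 0.038, and with GC trends removed, 0.25, adjusted p = 0.00342), and its log2 fold change against 0 h was -0.27 ± 0.13 (adjusted p = 0.109). From 3 to 6 h it fell by 2.93 on the log2 scale (SE 0.15, adjusted p = 6.47e-09), the largest drop of any member in that interval. It was 2.26-fold lower at 72 h than at 0 h (log2 fold change -1.18 ± 0.13, adjusted p = 3.91e-06). At 1.5 h CBFA2T3 had a log2 fold change of -0.62 ± 0.13 (adjusted p = 0.00672), and -0.27 with GC trends removed. That call was lost without 0 h replicate 2 (-0.40, adjusted p = 0.0811), 1.5 h replicate 1 (-0.61, adjusted p = 0.0554) or 1.5 h replicate 2 (-0.63, adjusted p = 0.0514). The 3 h value was called lower with libraries scaled to total counts (-0.56, adjusted p = 0.00236) and without 0 h replicate 1 (-0.46, adjusted p = 0.00839).

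Of the GFI1-family repressors, GFI1B ended above its start and GFI1 below it. GFI1B (chr9:132944000-132991687, plus strand), needed for erythroid and megakaryocyte cells, was at 18.3 and 21.3 TPM at 0 h, 13.0 and 12.2 at 1.5 h, 10.0 and 9.22 at 3 h, then 2.16 and 3.23 at 6 h. It reached 33.0 and 31.0 TPM at 24 h, 44.6 and 42.9 at 48 h, then 34.5 and 39.9 at 72 h, all above the 0 h pair. The log2 fold change was -2.06 ± 0.16 at 6 h (adjusted p = 1.21e-07) and 1.05 ± 0.15 at 48 h (adjusted p = 4e-05). From 6 to 24 h GFI1B rose by 2.83 ± 0.17 on the log2 scale (adjusted p = 1.48e-08). GFI1 (chr1:92474762-92486876, minus strand), the relative that acts in granulocyte and lymphoid cells, was scarce throughout, with 15 to 187 reads in a library. It was at 1.62 and 2.74 TPM at 0 h, 0.281 and 0.327 at 3 h, 3.18 and 2.73 at 24 h, then 0.605 and 0.799 at 72 h. Its log2 fold change was -1.56 ± 0.29 at 72 h (adjusted p = 0.000413). The values at 24 h (0.75 ± 0.26, adjusted p = 0.0239) and 48 h (-0.97 ± 0.28, adjusted p = 0.00951) rest on few reads. The 24 h call was lost with total counts (0.50, adjusted p = 0.116), with counts derived from TPM (0.57, adjusted p = 0.248) and without 24 h replicate 1 (0.71, adjusted p = 0.0822), 24 h replicate 2 (0.77, adjusted p = 0.0717) or 0 h replicate 2 (0.66, adjusted p = 0.116), the 6 h call without 6 h replicate 1 (-0.93, adjusted p = 0.0561), and the 48 h call without 48 h replicate 2 (-0.67, adjusted p = 0.119) or 0 h replicate 1 (-0.86, adjusted p = 0.0534).

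NFE2 had the deepest trough of the 10 members. The gene (chr12:54292111-54301121, minus strand) was at 84.0 and 96.0 TPM at 0 h, 77.6 and 76.6 at 0.5 h, 42.9 and 48.8 at 1.5 h, 6.25 and 6.00 at 3 h, then 1.50 and 1.55 at 6 h. It was at 17.1 and 18.6 TPM at 24 h, 48.9 and 48.5 at 48 h, then 53.3 and 59.5 at 72 h. The 2 libraries of a time point stayed close together, and each pair from 0.5 h on was below the 0 h pair. NFE2 was the only member called between 0.5 and 1.5 h, where it fell by 0.67 on the log2 scale (adjusted p = 0.00826, 5.77% of all genes called, 1.67% lower and 4.11% higher). That call was lost without 0.5 h replicate 1 (-0.67, adjusted p = 0.0662), 0.5 h replicate 2 (-0.67, adjusted p = 0.0591) or 1.5 h replicate 1 (-0.53, adjusted p = 0.145). At 6 h it was 47.4-fold lower than at 0 h (log2 fold change -5.57 ± 0.18, adjusted p = 1.84e-11), with 40 and 57 reads left. At 24 h, when LMO2 and GFI1B were called higher than at 0 h, NFE2 was still lower (log2 fold change -2.23 ± 0.14, adjusted p = 1.27e-08), and it rose again from 24 to 48 h (1.29 ± 0.14, adjusted p = 3.64e-05).

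By reads, MEIS1 had the largest rise at 72 h among the members. The gene (chr2:66433452-66573869, plus strand) was at 9.17 and 9.91 TPM at 0 h, 7.90 and 6.04 at 0.5 h, 4.72 and 5.66 at 1.5 h, 3.03 and 2.60 at 3 h, then 2.49 and 2.56 at 6 h. It was at 13.0 and 10.4 TPM at 24 h, 17.5 and 16.3 at 48 h, then 16.3 and 17.4 at 72 h. All 6 libraries from 24 h on lay above the 0 h pair. The log2 fold change was -1.38 ± 0.11 at 6 h (adjusted p = 1.18e-07) and 1.21 ± 0.10 at 72 h (adjusted p = 1.85e-07). The value at 1.5 h differed by unit: the log2 fold change of reads at 1.5 h was -0.17 ± 0.10 (adjusted p = 0.274), and -0.79 (adjusted p = 0.0106) with counts derived from TPM. The ranking at 72 h also depended on the unit. By mean TPM, MEIS1 went from 9.54 at 0 h to 16.8 at 72 h, and GFI1B, with the larger rise in that unit, from 19.8 to 37.2.

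**Figure D3:**
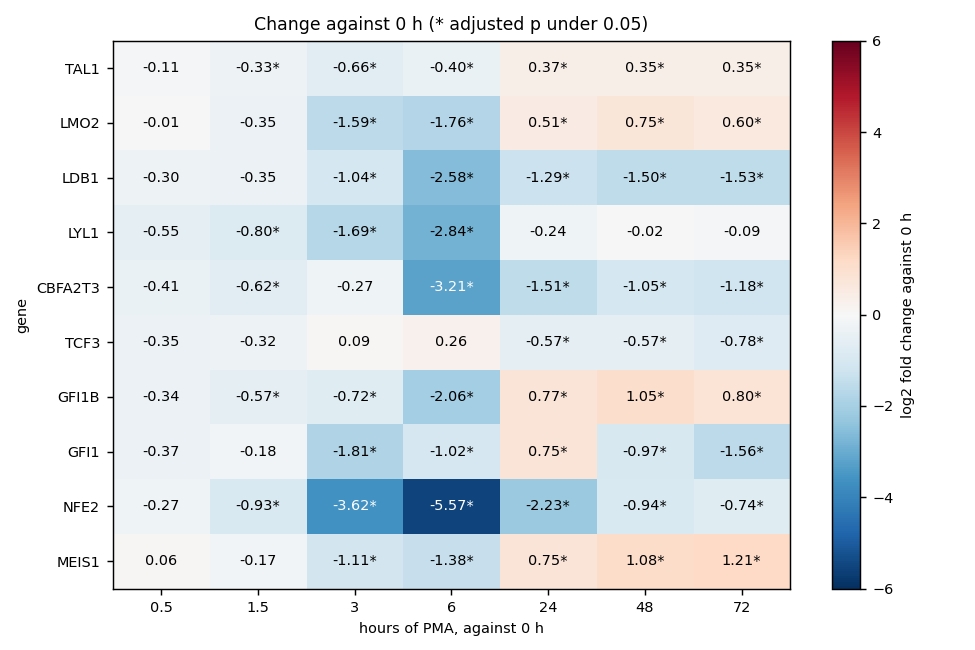
Log2 fold change of each gene, from top to bottom, against 0 h at each later time point, from left to right, coloured from blue for lower to red for higher, with a star at an adjusted p under 0.05. The 6 h column is negative for 9 of 10 genes, from -5.57 for NFE2 to -0.40 for TAL1.

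By time point, 0 of 10 members were called at 0.5 h by edgeR (0.171% of all genes, 0.165% higher and 0.0057% lower), with 5 at an unadjusted p under 0.05, and DESeq2's Wald test also called 0. Without 0 h replicate 1, 4 members (TCF3, LYL1, CBFA2T3 and GFI1B) were called at 0.5 h. At 1.5 h, 5 of 10 were lower (TAL1, LYL1, CBFA2T3, GFI1B and NFE2) beside 17.1% of all genes called, 8.05% lower and 9.05% higher. At 3 h, 8 of 10 were lower, all but CBFA2T3 and TCF3 (42% of all genes called, 20.5% lower and 21.5% higher). At 24 h, 5 were higher (TAL1, LMO2, GFI1B, GFI1 and MEIS1) and 4 lower (58.3% of all genes called, 31.7% higher and 26.6% lower), and with counts derived from TPM the calls of TAL1, GFI1, MEIS1 (0.42, adjusted p = 0.0554) and TCF3 (-0.31, adjusted p = 0.0507) were lost. At 48 h, 4 were higher and 5 lower (54.3% of all genes called, 30.2% higher and 24.1% lower). With GC trends removed, 3 members (LYL1, CBFA2T3 and NFE2) were called at 1.5 h. With total counts or without 0 h replicate 1, 8 members were called at that time, 2 were without 1.5 h replicate 1, and without 0 h replicate 2 or without 1.5 h replicate 2 only 1 was.

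Between neighbouring time points, the falls lay before 6 h and the rises mostly between 6 and 24 h. From 1.5 to 3 h, 7 members fell and TCF3 was called higher (25.1% of all genes called, 12.1% lower and 13% higher), and from 3 to 6 h, 5 fell (LDB1, LYL1, CBFA2T3, GFI1B and NFE2) and TAL1 was called higher (41.2% called, 22.1% lower and 19% higher). Both of these higher calls were lost with total counts (0.21 for TCF3 and 0.18 for TAL1). From 6 to 24 h all 10 were called, 9 higher and TCF3 lower (56.6% of all genes called, 30.8% higher and 25.8% lower), with a median log2 fold change of 1.95 against 0.0046 over all genes. From 24 to 48 h CBFA2T3, NFE2 and MEIS1 rose and GFI1 fell (15% called, 8.88% higher and 6.12% lower). Without any 1 of the 0.5, 1.5, 24 and 48 h libraries, 2 members were called from 24 to 48 h. From 48 to 72 h 0 members were called by edgeR, none of them at an unadjusted p under 0.05 (1.47% of all genes called, 1.14% higher and 0.325% lower).

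Transcripts from different starts of a gene did not keep their proportions. These values are salmon's split of reads among overlapping transcripts and are given as a description, since the error of that split was not used here. For GFI1B, the transcripts that start with GFI1B-202, whose promoter is the downstream entry printed above, held 79.2% and 78.6% of the gene's reads at 0 h, 0% and 19.7% at 6 h, then 81.1% and 85.1% at 72 h. Their level was 15.7 and 18.1 TPM at 0 h, 0 and 0.957 TPM at 6 h, and 29.8 and 35.7 TPM at 72 h. The noncoding transcript GFI1B-204 from the most upstream start stayed between 0.798 and 1.50 TPM in all libraries and made up 60.0% and 52.1% of the gene's reads at 6 h. GFI1B-204 shares 233 of its 3021 bases with exons of TSC1 on the other strand, and how strand was used in counting is not given in the sources used here, so these reads cannot be assigned to either gene with certainty. GFI1B-201, from the upstream RefSeq entry, went from 1.36 and 1.63 TPM at 0 h to 0.983 and 0.919 at 6 h and to 5.18 and 4.50 at 24 h.

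LDB1 came back with another mix of starts. The transcripts of the upstream start, LDB1-202, were at 13.3 and 21.7 TPM at 0 h, 2.66 and 2.75 at 6 h, then 13.6 and 16.4 at 72 h. LDB1-201, from the downstream start, was at 56.1 and 56.2 TPM at 0 h, 6.81 and 7.32 at 6 h, then 11.7 and 13.4 at 72 h. The share of LDB1-202 in the gene's reads was 17.5% and 25.9% at 0 h and 50.8% and 52.4% at 72 h. For LMO2, the distal start (LMO2-201) held 42.1% and 45.2% of reads at 0 h, 6.56% and 10.1% at 6 h, then 20.02% and 24.8% at 72 h. The transcripts of the proximal start region of LMO2 together were at 19.8 and 17.8 TPM at 0 h and at 32.1 and 34.4 TPM at 72 h. Within that region the coding LMO2-202 went from 37.8% and 43.6% of the gene's reads to 27.8% and 26.4%. LMO2-203, annotated as a target of nonsense-mediated decay, went from 13.4% and 0% to 36.6% and 35.5%. In between, the estimated share of LMO2-203 swung between replicates. Replicate 1 had 0% after 3 h, 31.7% after 6 h, then 13.3% after 48 h, where replicate 2 had 39.2%, 0% and 33.5%. The libraries of 1.5 h (17.7%, 25.5%) and 24 h (21.3%, 21.9%) lay closer together. A shift of LMO2 towards LMO2-203 therefore cannot be read from the first and last values alone.

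**Figure D4:**
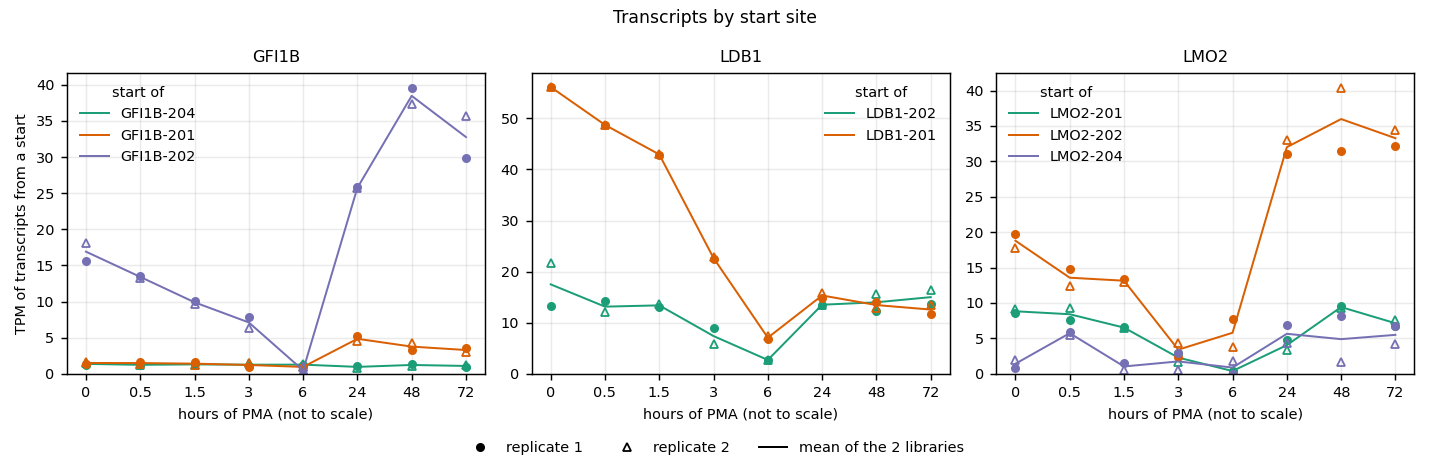
Level in TPM of the transcripts from each annotated start of GFI1B, LDB1 and LMO2 that held at least 10% of the gene's reads in some library, against hours of PMA, spaced evenly, with replicate 1 as filled circles, replicate 2 as open triangles and the mean as a line. Transcripts from the GFI1B-202 start were at 0 and 0.957 TPM at 6 h while GFI1B-204 was at 1.18 and 1.35 TPM.

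The factors that the complex joins changed in opposite directions in the first hours. GATA1, the erythroid and megakaryocyte GATA factor, was at 107 and 155 CPM at 0 h, 9.30 and 9.98 at 6 h, then 129 and 137 at 72 h. Its log2 fold change at 6 h was -3.76 ± 0.18 (adjusted p = 7.11e-10). GATA2, the factor of progenitors and early megakaryocytes, went from 113 and 154 CPM at 0 h to 749 and 638 at 3 h (log2 fold change 2.38 ± 0.16, adjusted p = 7.45e-08) and was still at 281 and 353 at 72 h. ZFPM1, the GATA1 cofactor, rose to 70.6 and 80.2 CPM at 24 h from 28.0 and 41.3 at 0 h (log2 fold change 1.12 ± 0.22, adjusted p = 0.000532). GATA3 was under the filter, with 1 to 9 reads. Of the 3 genes tested, 1 was called higher and 2 lower at 6 h (27.8% and 29.4% of all tested genes), with a median log2 fold change of -0.68.

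Among 14 other E proteins, LIM-domain and helix-loop-helix partners, 10 were tested. At 6 h, 2 of these 10 rose and 6 fell (27.8% and 29.4% of all tested genes). The median log2 fold change of these 10 was -0.30, against 0.00115 over all genes. SSBP3, which stabilizes LDB1, was the most abundant of them and rose from 90.4 and 104 CPM at 0 h to 624 and 723 at 24 h (log2 fold change 2.79 ± 0.12, adjusted p = 3.23e-10). TCF4, an E protein like TCF3, fell to 15.8 and 13.9 CPM at 6 h from 69.7 and 60.3 at 0 h (log2 fold change -2.13 ± 0.11, adjusted p = 1.95e-09). The E protein TCF12 fell by 0.27 on the log2 scale at 6 h (SE 0.09, adjusted p = 0.0187). NHLH1, a helix-loop-helix factor known from neurons, had the largest fall (-3.46 ± 0.27 at 24 h, adjusted p = 1.18e-07), from 3.56 and 3.35 CPM. LMO1, LMO3, LDB2 and RUNX1T1 had at most 9 reads in any library and were not tested.

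Of all tested genes, 27.8% were called higher and 29.4% lower at 6 h, and 31.7% and 26.9% at 72 h. Of the 12 corepressor genes that work with GFI1 and GFI1B, 4 rose and 7 fell at 6 h (median -0.72). At 72 h, 1 rose and 8 fell (median -0.34). KDM1A, the demethylase itself, was at 194 and 208 CPM at 0 h and 101 and 102 at 6 h (log2 fold change -0.99 ± 0.09, adjusted p = 4.26e-07). The largest fall was that of ZMYM3 (-3.34 ± 0.13 at 6 h, adjusted p = 7.27e-11), the largest rise that of HMG20B (0.99 ± 0.15 at 6 h, adjusted p = 5.53e-05), and GSE1 had the highest mean (369 CPM). Of 8 corepressor genes of CBFA2T3 and SIN3, 4 rose and 3 fell at 6 h (median 0.17), led by NCOR1 (0.87 ± 0.09 at 6 h, adjusted p = 1.26e-06), while TBL1X had the largest fall (-1.77 ± 0.10 at 24 h, adjusted p = 2.85e-09).

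Most of the relatives and partners of NFE2 were higher when NFE2 itself was lowest. Of 8 small MAF, BACH and NFE2-like genes, 5 rose and 1 fell at 6 h (median 0.95), beside 27.8% and 29.4% of all tested genes. BACH2, a repressor that competes for MAF partners, rose from 7.49 and 9.08 CPM at 0 h to 136 and 130 at 6 h (log2 fold change 4.01 ± 0.11, adjusted p = 5.83e-12). BACH1, the repressor of heme-responsive genes and the most abundant of the list, rose from 141 and 108 CPM to 451 and 391 at 6 h (log2 fold change 1.76 ± 0.17, adjusted p = 6.54e-07). The small MAF gene MAFF was already at 65.2 and 66.3 CPM at 1.5 h, from 16.1 and 17.3 (log2 fold change 1.97 ± 0.11, adjusted p = 9.85e-08). NFE2L3 fell at 6 h (log2 fold change -1.66 ± 0.15, adjusted p = 3.83e-07).

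For MEIS1, 8 of 12 listed relatives and partners were tested. Of these, 5 rose and 2 fell at 6 h (median 0.62), beside 27.8% and 29.4% of all tested genes. At 72 h, 4 rose and 3 fell (median 0.34), beside 31.7% and 26.9% of all tested genes. PBX3, a homeodomain partner, went from 0.737 and 0.676 CPM at 0 h to 11.9 and 10.9 at 72 h (log2 fold change 4.01 ± 0.17, adjusted p = 1.38e-10). HOXB4 had the largest fall (-2.25 ± 0.13 at 6 h, adjusted p = 3.13e-09), and MEIS2 had the highest mean (43.1 CPM). PKNOX2, HOXA9, HOXA10 and HOXA7 had at most 4 reads in any library.

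**Figure D5:**
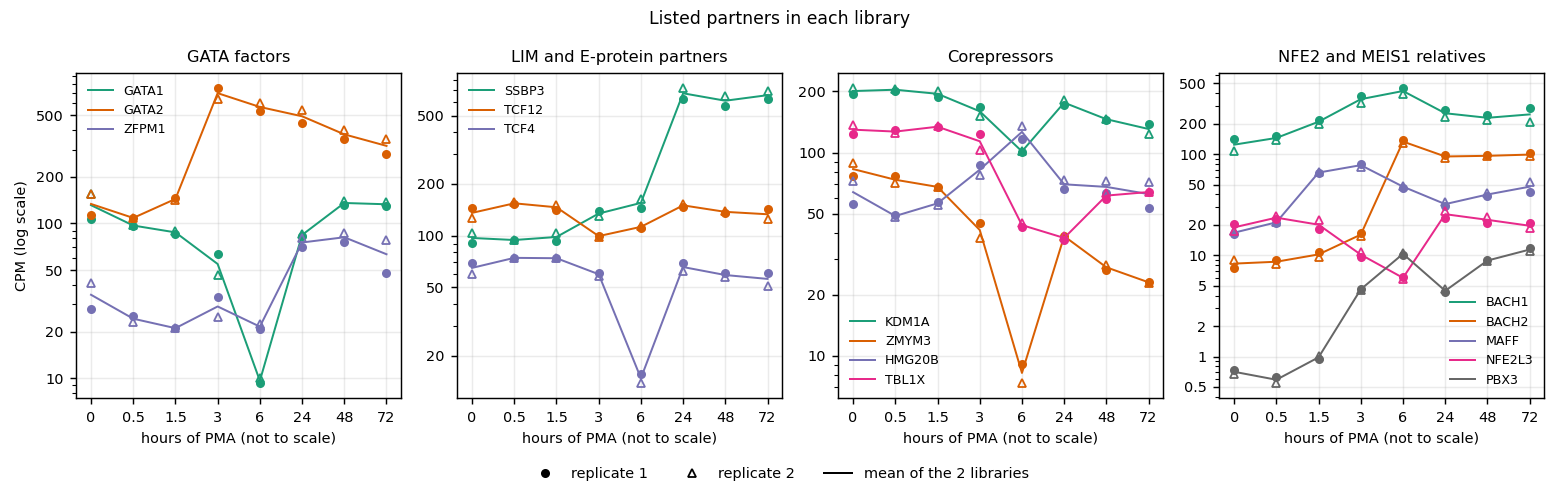
CPM (log scale) of listed partners and relatives against hours of PMA, spaced evenly, with replicate 1 as filled circles, replicate 2 as open triangles and the mean as a line. GATA2 was at 749 and 638 CPM at 3 h, when GATA1 was at 63.3 and 46.2 CPM, and BACH2 reached 136 and 130 CPM at 6 h.

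The genes whose log2 CPM followed a member most closely over the 16 libraries were taken among the 10925 protein-coding genes whose mean was 5 CPM or more. For TAL1 they were MSRB1 (Pearson r = 0.99), SNAP47 (0.98) and RETREG2 (0.98), and for GFI1B they were SERPINH1 (0.98), ABHD4 (0.98) and YPEL3 (0.98). NFE2 was followed by MOCS1 (0.99), PRKAB1 (0.99) and ST6GAL1 (0.99), and MEIS1 by XYLT2 (0.99), PIGM (0.99) and ARID1B (0.99). Among the members, MEIS1 and LMO2 had r = 0.97, LDB1 and CBFA2T3 0.90, and TCF3 was negative with each of the other 9, from -0.90 with MEIS1 to -0.04 with LDB1. These r describe a course that the libraries of a time point share, and carry no test.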

How the data were processed

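Total RNA was made into ribosome-depleted libraries, per the labels' protocols. The submitters' processing notes name Trim Galore 0.4.3, salmon, HISAT2 2.1.0, SAMtools 1.9, deepTools 3.0.1, R 3.3.1 and DESeq2, and the builds hg19 and hg38, without roles. Each deposited table lists 177456 transcripts of 1 library, with an estimated count of reads that need not be whole and, per the file headers, TPM and an effective length. Both the estimated counts and the TPM values are used as the authors deposited them.

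Transcripts were joined to genes with GENCODE 29 (GRCh38). Of them, 94.1% matched, and the reads of the others, between 3.01% and 3.75% per library, were not used. Counts were summed per gene and rounded, and tested with edgeR 4.0.16 in R 4.3.3 (TMM factors 0.854 to 1.139, filterByExpr, 1 fit of all 8 time points, quasi-likelihood F-test). Calls are at 0.05 after Benjamini-Hochberg adjustment over the 17559 genes of a contrast. CPM is reads scaled to the TMM library size, except that marker sums use library totals, and a floor of 3 reads was 0.0623 to 0.128 CPM, for counting error only. Standard errors are the absolute log2 fold change divided by the square root of F, with a prior count of 0.125 for the printed changes. An exact test of 2 libraries against 2 cannot reach 0.05, so single genes rest on the spread that the fit shares over genes.

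The members and the gene lists were chosen with earlier results of these data known. All members are named in every comparison, and from each list the gene with the highest mean CPM and those with the largest called rise and fall, with further genes of a list added after their values were seen. Some listed genes are not reported here by name. GC removal used a lowess (span 0.3) of each library. The replicate numbers were checked for pairing: deviations from the time point means correlated between -0.06 and 0.14 over 28 pairs of time points, over 0.1 in 6, so the libraries were treated as unpaired. DESeq2 1.42.0 was an alternative.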

Additional observations from a re-analysis of the deposited data

How the results depend on the processing

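Alternatives were other scaling (DESeq2 size factors, total counts), DESeq2's Wald test, no filter or at least 10 reads in every library, counts derived from TPM, the replicate number as a block, removal of GC trends, both together, fits of only 2 time points, and each library left out. The numbers of members called against 0 h at 3, 6, 48 and 72 h, from 6 to 24 h and at any time stayed within 1.5 times under all of them. At 0.5 h, 2 members were called without a filter. At 1.5 h, 8 members were called with total counts, 3 with GC trends removed and 2 in a fit of only the 2 time points. At 24 h, 5 members were called with counts derived from TPM. From 0.5 to 1.5 h, 3 members were called with total counts, 4 with GC trends removed, 5 with the block and GC removal together and 4 with only the 2 time points. From 24 to 48 h, 7 members were called with the block and GC removal together and 7 with only the 2 time points, and from 48 to 72 h, 1 with the block and GC removal. Leaving out libraries gave 0 to 4 members at 0.5 h (4 without 0 h replicate 1), 1 to 8 at 1.5 h (8 without 0 h replicate 1, 1 without 0 h replicate 2 or 1.5 h replicate 2, 2 without 1.5 h replicate 1), 0 to 1 from 0.5 to 1.5 h (0 without 0.5 h replicate 1, 0.5 h replicate 2 or 1.5 h replicate 1) and 2 to 4 from 24 to 48 h (2 without any 1 of the 0.5, 1.5, 24 and 48 h libraries). Where a fit left 1 library at a time point, that library is assumed to vary like the other time points. LYL1 turned to higher at 48 h (0.31) and 72 h (0.44) with GC trends removed, and at 24, 48 and 72 h (0.14, 0.31 and 0.44) with the block and GC removal together; the cause was not tested. No other member changed sign with a call. The replicate block alone gave 6 members at 1.5 h, with LDB1 added, and changed no other call against 0 h; between neighbouring times it added CBFA2T3 from 1.5 to 3 h (0.35) and GFI1 from 3 to 6 h (0.82), both higher; the numbers do not pair the libraries. GFI1, with 15 to 187 reads, is the member that depth limits most.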

Other observations

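The following lists hold genes taken as targets of these regulators. Of all tested genes, 31.7% were called higher and 26.6% lower at 24 h, and 31.7% and 26.9% at 72 h. Of 11 genes listed as TAL1 and GATA1 targets, not all of them erythroid, 1 was higher and 8 lower at 24 h (median log2 fold change -1.52, against -0.01 over all genes). At 72 h, 2 were higher and 7 lower (median -1.83), when TAL1 had a log2 fold change of 0.35. KIT, the stem cell factor receptor, rose from 0.890 and 0.257 CPM at 0 h (29 and 8 reads) to 37.3 and 31.3 at 72 h (log2 fold change 5.88 ± 0.31, adjusted p = 1.84e-09 by edgeR). EPB42, a red cell membrane gene, had 52 and 63 reads at 0 h and 0 at 72 h, and ANK1, the red cell ankyrin and the most abundant of the list, was at 213 and 220 CPM at 72 h (-0.20 ± 0.10, adjusted p = 0.105).

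Of 6 genes listed as NFE2 targets, not all of them platelet genes, 5 were tested. At 24 h, 1 was called higher and 2 lower, beside 31.7% and 26.6% of all tested genes. At 72 h, 3 were higher and 0 lower, beside 31.7% and 26.9% of all tested genes. TUBB1, the platelet tubulin, was at 2.46 and 2.41 CPM at 0 h, 1.20 and 1.31 at 6 h, then 16.1 and 14.7 at 72 h (log2 fold change 2.66 ± 0.17, adjusted p = 1.14e-08), when NFE2 was below its 0 h level. ITGA2B, the platelet integrin chain, fell at 24 h (log2 fold change -2.14 ± 0.11, adjusted p = 1.96e-09) and was not called lower at 72 h. TXNRD1, a thioredoxin reductase, rose to 1319 and 1263 CPM at 6 h from 247 and 232. Of 10 genes known to be repressed by GFI1 or GFI1B, 7 were tested. At 6 h, 4 were higher and 2 lower (median 2.36), beside 27.8% and 29.4% of all tested genes. At 72 h, 6 were higher (median 2.69), beside 31.7% of all tested genes. CDKN1A, the cell cycle inhibitor, rose to 579 and 424 CPM at 3 h from 12.5 and 14.8 (5.20 ± 0.17, adjusted p = 4.75e-11), and BCL2L1, the survival gene, was lowest at 6 h (-2.80 ± 0.12, adjusted p = 2.61e-10). Of 8 megakaryocyte genes known as MEIS1 or TAL1 targets, 4 were tested. All 4 were higher at 72 h (31.7% of all tested genes), with the largest rise for ITGB3 (9.48 ± 0.16, adjusted p = 7.13e-14). PF4, GP9 and GP1BA had at most 5 reads.

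The start of MEIS1-202 in MEIS1 had 2.37 TPM in each 0 h library, 0.558 and 0.186 TPM at 0.5 h, and 0 and 0.0314 TPM at 3 h, when the start of MEIS1-201 was at 1.26 and 1.41 TPM. Later the MEIS1-202 start was at 1.52 ± 1.42 TPM (SD, n = 2) at 24 h, 1.95 ± 1.87 at 48 h and 1.04 ± 0.005 at 72 h. On average it held 12.9% of the gene's 327 and 322 reads at 0 h and 0.893% of 174 and 143 reads at 3 h. These values are salmon's split of few reads, and its error was not used here.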
